A study of Mus musculus with 2 samples.

Results

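The subject here is a set of 3 mature mouse miRNAs, mmu-miR-146a-5p, mmu-miR-146b-5p and mmu-miR-155-5p. They are grouped by the transcription factor NF-κB, which is known to switch on the genes of miR-146a and miR-155. They were measured in brain RNA of male C57BL/6 mice on Affymetrix miRNA 4.0 arrays, with 1 array for CPZ and 1 array for control. The CPZ mice ate a diet with 0.2% CPZ (cuprizone), a copper chelator that kills the myelin-forming oligodendrocytes, for 6 weeks, and the control mice were age-matched and kept on a normal diet. The labels name cerebellum as the tissue and the study's methods name cerebrum, the 2 sources also differ in the extraction reagent, and neither tells if RNA from several animals was pooled for an array. Replicates are thus lacking, no test could be run, and the differences below hold for these 2 arrays only.

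The deposited table holds 36249 features (probe sets) under numbers without names, and the array covers miRNAs of other species besides mouse. The 3 miRNAs were therefore chosen by measured values, as the features whose difference between the arrays and whose level equal those printed for the miRNA in the study's list of increased miRNAs. That list holds 39 miRNAs past a limit of 1.5-fold, and a second list holds 30 that were lower in CPZ. The 3 are among 69 miRNAs that could be named in this way, of 36249 features in all. The printed difference and level together fix the value on each array. Since the increase itself chose them, its presence is no finding, and what follows describes how large it was, how it compares with the spread of other features and how far it depends on the scale. All values are log2 signals after RMA, which subtracts background, aligns the arrays with each other and joins the probes of a feature into a single value.

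A miRNA guides its protein partners to mRNAs that match its seed, bases 2 to 8 from the 5′ end, and those mRNAs are then repressed. Toll-like receptors and the interleukin-1 receptor signal through the kinase Irak1 and the ligase Traf6 to NF-κB, which enters the nucleus and switches on inflammatory genes, and with them the genes of miR-146a and miR-155. miR-146a and miR-146b repress Irak1 and Traf6 and so feed back on the signal, whereas miR-155 represses Socs1 and the phosphatase gene Inpp5d, which themselves restrain immune signalling. In brain, activated microglia and astrocytes are known sources of these miRNAs.

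The mature sequences are shown because the miR-146 forms share a seed and the third member does not, with the seed in capitals (RefSeq, GRCm38.p6).
mmu-miR-146a-5p: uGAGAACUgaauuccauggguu
mmu-miR-146b-5p: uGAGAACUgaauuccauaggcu
mmu-miR-155-5p: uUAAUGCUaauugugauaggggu

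All 3 members were found by name in the RefSeq miRNA table, which holds 1738 mature entries under 1679 names. The seed GAGAACU occurred under 2 names, miR-146a-5p and miR-146b-5p, and the seed UAAUGCU under 1, miR-155-5p. An mRNA site that pairs with the whole seed and is followed by A reads AGUUCUCA for the miR-146 forms and AGCAUUAA for miR-155-5p. miR-146a-5p and miR-146b-5p are identical at 20 of 22 positions, share a run of 17 bases from the 5′ end, and differ by the substitutions G18A and U21C (miR-146a-5p base first, counted from 1 at the 5′ end). Both differences lie outside the seed, near the 3′ end. Among the other mature sequences, the longest run shared with miR-146a-5p was 9 bases, in miR-184-3p, miR-7091-5p and miR-7646-5p. For miR-146b-5p it was 11 bases, in miR-192-3p, and for miR-155-5p 8 bases, in miR-101b-3p. The miR-146 forms hold 9 G or C bases of 22 each, and miR-155-5p holds 8 of 23. How strongly the array's probes for the 2 miR-146 forms bind the other form was not tested.

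Each member is the 5′ arm of a hairpin, shown here with the mature arm in capitals.
Mir146: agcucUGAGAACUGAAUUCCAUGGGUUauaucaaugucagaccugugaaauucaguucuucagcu
Mir146b: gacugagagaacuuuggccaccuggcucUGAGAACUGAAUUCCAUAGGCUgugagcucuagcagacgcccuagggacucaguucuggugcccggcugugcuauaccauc
Mir155: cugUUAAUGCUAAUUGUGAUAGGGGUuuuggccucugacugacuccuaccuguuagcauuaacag

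On GRCm38.p6, miR-146a-5p lies at chr11:43374435-43374456 on the minus strand, miR-146b-5p at chr19:46342790-46342811 on the plus strand and miR-155-5p at chr16:84714143-84714165 on the plus strand. They are thus encoded on 3 chromosomes. Mir155 lies within the span of Mir155hg and Mir146b within that of Gm36493, both annotated as long noncoding RNA genes. No annotated gene spans Mir146, which lies between Atp10b and Gm5782. Folded with RNAfold, the hairpins had minimum free energies of -26.5 kcal/mol (Mir146, 65 bases), -39.9 kcal/mol (Mir146b, 109 bases) and -27.2 kcal/mol (Mir155, 65 bases). In the predicted folds, 18 of 22 bases of miR-146a-5p, 18 of 22 of miR-146b-5p and 19 of 23 of miR-155-5p paired with the annotated 3p arm. The RefSeq promoter of Mir155hg held no match to the κB consensus on either strand, and 8.46% of the 32851 promoters in the RefSeq table held a match. Most promoters thus lack a match, and whether NF-κB controls Mir155hg was not tested. Promoters of Mir146 and Mir146b were not analysed here.

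miR-146a-5p had an RMA value of 8.14 on the CPZ array and 6.70 on the control array. The log2 ratio was 1.44, a 2.71-fold higher signal in CPZ. On the linear scale the signal was 282 in CPZ and 104 in control, a difference of 178 signal units. The 13 features located for this miRNA all carried this pair of values, as the way of locating them requires, so they are not repeat measurements. The same holds for the features of the other members.

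miR-146b-5p had an RMA value of 6.30 on the CPZ array and 5.64 on the control array. The log2 ratio was 0.67, a 1.59-fold higher signal in CPZ, which puts it just inside the 1.5-fold limit of the study's list. Its linear signal was 79.0 in CPZ and 49.8 in control, a difference of 29.2 signal units, and 10 features carried this pair of values. On the log2 scale the increase of miR-146a-5p exceeded that of miR-146b-5p, with which it shares the seed, by 0.77.

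miR-155-5p, known from activated T cells, B cells and macrophages, had an RMA value of 4.94 on the CPZ array and 2.29 on the control array. The log2 ratio was 2.65, a 6.26-fold higher signal in CPZ, and 2 features carried this pair of values. This fold depends on the weak control signal, since it was 3.89 with 4 signal units added to both arrays, 2.23 with 16 and 1.37 with 64. The linear signal of miR-155-5p was 30.6 in CPZ and 4.89 in control, a difference of 25.7 signal units. The control value is low, and whether it lay above the array's background was not tested, because detection calls were not used here. Of all distinct pairs of values, 2 were under 3 in control and over 4.5 in CPZ, that of miR-155-5p and an unnamed one at 4.72 in CPZ and 2.97 in control. These limits were not planned and lie around the values of miR-155-5p, so the small number of such pairs is no finding.

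**Figure D1:**
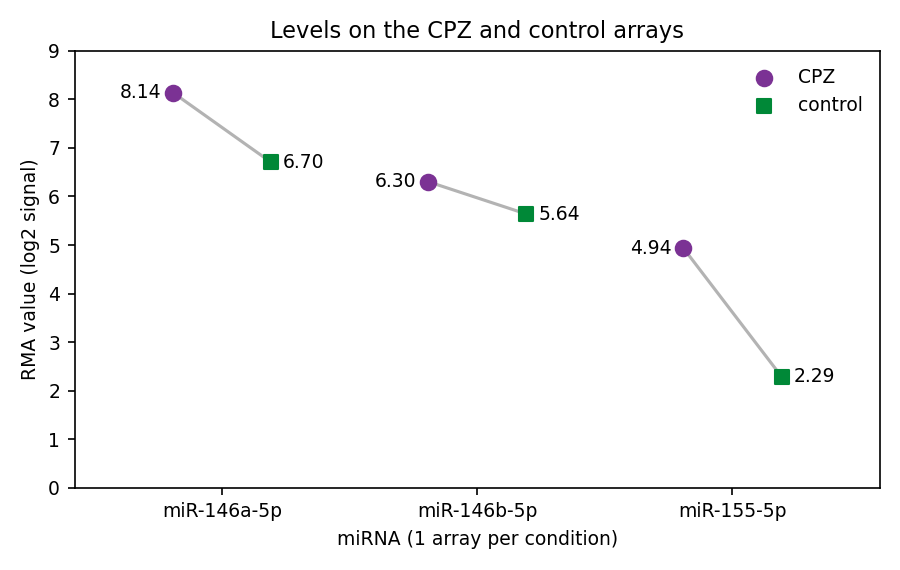
RMA value (log2 signal, vertical axis) of the 3 miRNAs on the CPZ array (circles) and the control array (squares), 1 array per condition. Each line joins the values of 1 miRNA, and the line of miR-155-5p, at 4.94 in CPZ and 2.29 in control, is the steepest. Heights of different miRNAs are not comparable, because probes differ in how strongly they bind.

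The place of each miRNA among the values of its own array was higher in CPZ than in control. This restates the pair of values by which the members were chosen, so it is a description only. Over the 6653 distinct pairs of values, miR-146a-5p ranked 441 from the top on the CPZ array and 715 on the control array. miR-146b-5p ranked 798 in CPZ and 1002 in control. The widest difference was that of miR-155-5p, which ranked 1236 in CPZ and 2769 in control, or at percentile 81.4 in CPZ and 58.4 in control. Pairs are more crowded at low levels, with 514 at a mean of 3 to 4 and 185 at 7 to 8. The same log2 ratio therefore spans more ranks there, and the rank differences of the members are not comparable. These ranks order signals, not amounts of RNA.

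All 3 members were at least 1.5-fold higher in CPZ, as their choice requires, beside 9.07% of the 36249 features and 15.1% of the 6653 distinct pairs. At least 2-fold higher were 2 of the 3, miR-146a-5p and miR-155-5p, beside 3.77% of the distinct pairs. Nothing about the members can be read from these counts, since the same contrast selected them. The size of the increase is set beside the other features as a description only, since it too comes from the contrast that selected the members. miR-155-5p had the second largest increase of all 6653 pairs, after an unnamed pair at 3.82 in CPZ and 1.01 in control, and the largest of the 2112 pairs with a mean of at least 3. miR-146a-5p ranked 65 of all pairs. Among the 1210 pairs with a mean of at least 5 its increase was the largest, and in the 875 pairs with a mean of at least 6 it was the only pair that was at least 2-fold higher. miR-146b-5p ranked 691 of all pairs and 26 of the 1210 with a mean of at least 5.

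**Figure D2:**
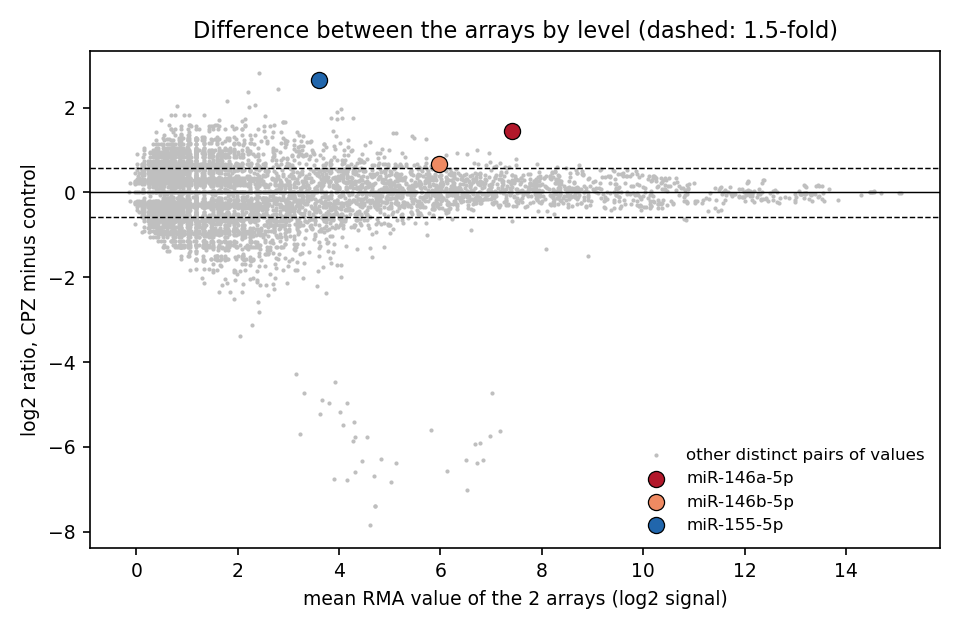
Log2 ratio (CPZ minus control, vertical axis) against the mean RMA value of the 2 arrays (log2 signal, horizontal axis) for the 6653 distinct pairs of values, with the 3 miRNAs enlarged and 1.5-fold differences dashed. miR-146a-5p (1.44) and miR-155-5p (2.65) stand above the features of like level, and miR-146b-5p (0.67) lies within the upper part of the cloud.

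The middle 50% of the log2 ratios spanned -0.56 to 0.28 among other pairs with a mean of 3 to 4 and -0.08 to 0.27 among those with a mean of 7 to 8. Each miRNA was therefore also set beside the pairs of its own level. Of the distinct pairs with a mean of 7 to 8, the level of miR-146a-5p, 4.86% were at least 1.5-fold higher in CPZ. The middle 95% of the 184 other pairs had log2 ratios of -0.34 to 0.62. The log2 ratio of miR-146a-5p, 1.44, was above that range, and the next highest pair, at 7.89 in CPZ and 7.10 in control, reached 0.79. In the opposite direction 2 pairs of this level were lower in CPZ by at least as much.

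At a mean of 5 to 6, the level of miR-146b-5p, 8.06% of the distinct pairs were at least 1.5-fold higher in CPZ. The middle 95% of the 334 other pairs had log2 ratios of -0.72 to 0.69. The log2 ratio of miR-146b-5p, 0.67, was within that range, and 12 of the other pairs had a ratio at least as high, while 10 were lower in CPZ by at least as much.

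At a mean of 3 to 4, the level of miR-155-5p, 12.5% of the distinct pairs were at least 1.5-fold higher in CPZ. The middle 95% of the 513 other pairs had log2 ratios of -1.84 to 1.16. The log2 ratio of miR-155-5p, 2.65, was above that range and above the next highest pair, at 4.91 in CPZ and 3.01 in control, which reached 1.90. In the opposite direction 8 pairs of this level were lower in CPZ by at least as much. These ranges describe differences between 2 arrays, in which CPZ, the animal and the hybridisation cannot be told apart.

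**Figure D3:**
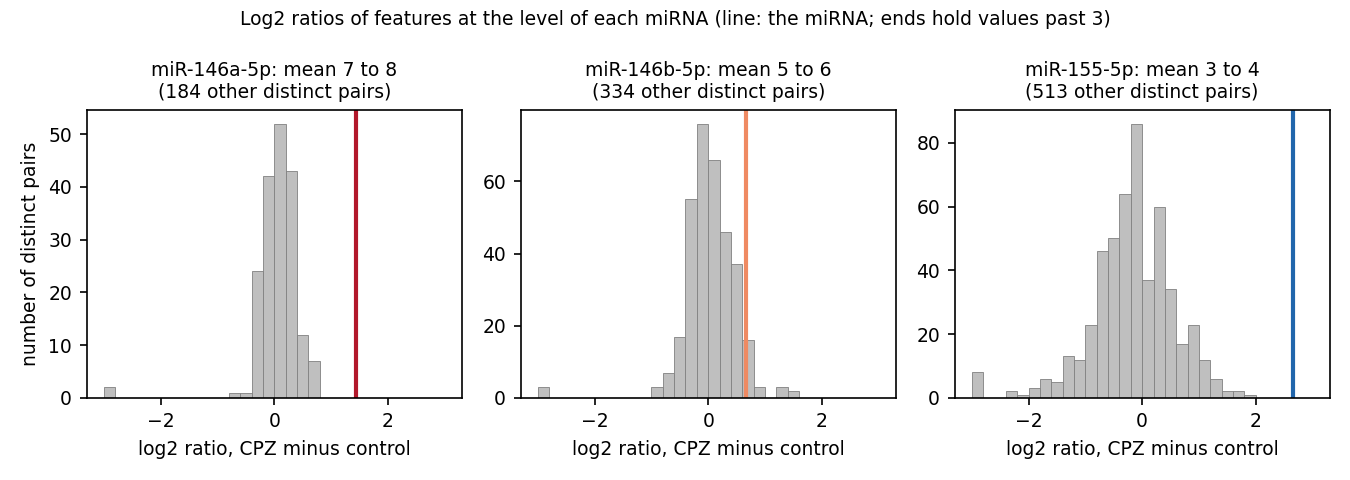
Number of distinct pairs (vertical axis) by log2 ratio (CPZ minus control, horizontal axis) for the pairs whose mean lies in the same whole-number range as that of miR-146a-5p, miR-146b-5p or miR-155-5p, with the miRNA as a vertical line and values past 3 in the end bars. The lines of miR-146a-5p (1.44) and miR-155-5p (2.65) lie beyond every other pair of their range on the high side, and that of miR-146b-5p (0.67) lies within the bars.

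A ratio of 2 weak signals depends on how the background is subtracted, which was examined by adding a constant to both linear signals before the ratio. With 16 added, miR-146a-5p was 2.48-fold, miR-155-5p 2.23-fold and miR-146b-5p 1.44-fold higher in CPZ. At least 1.5-fold higher were then 2 of the 3, beside 0.586% of the distinct pairs. Nothing can be read from this count either, since the same contrast chose the members and the constant lowers the ratios of weak pairs by construction. With 16 added, miR-146a-5p had the largest increase of all 6653 pairs and miR-155-5p the second largest, and miR-146b-5p ranked 60. For the same reasons these places are a description only. The unnamed pair that led without the constant was 1.67-fold higher with 16 added. The order of the members was not fixed, because miR-155-5p led with less than 11.9 signal units added and miR-146a-5p with more. The increase fell under 1.5-fold at 8.61 units for miR-146b-5p, at 46.6 for miR-155-5p and at 252 for miR-146a-5p. The increase of miR-146a-5p exceeded that of miR-146b-5p with each constant tried, by 0.78 on the log2 scale with 16 added.

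**Figure D4:**
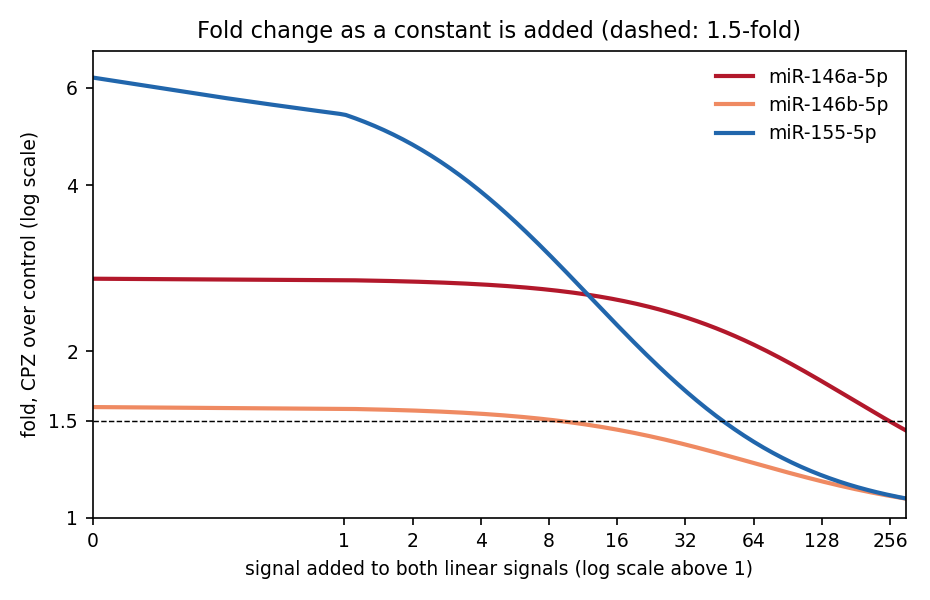
Fold (CPZ over control, vertical log scale) of the 3 miRNAs as a constant is added to both linear signals (horizontal axis in signal units, log scale above 1), with 1.5-fold dashed. The line of miR-155-5p crosses that of miR-146a-5p at 11.9 units and the 1.5-fold line at 46.6 units, and that of miR-146b-5p crosses it at 8.61 units.

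Of the other located miRNAs, those with the log2 ratio closest to that of miR-146a-5p over the 2 arrays were miR-199a-3p and miR-199b-3p (1.43 each, with a single pair of values) and miR-7a-5p (1.41). Closest to miR-146b-5p (0.67) were miR-466a-3p, miR-466e-3p and the stem-loop mir-665, at 0.66 each. No located miRNA came near miR-155-5p, since the closest, miR-6952-3p at 1.75 and miR-467d-3p at 1.67, differed from it by 0.90 and 0.98 on the log2 scale. A likeness over 2 arrays is a likeness of a single number.

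Of 16 miRNAs listed as induced by NF-κB or Toll-like receptors, these 3 could be located, and the opposite arms miR-146a-3p, miR-146b-3p and miR-155-3p were not. Cells that carry miR-146 and miR-155 could not be followed by their own markers, since none of 6 miRNAs listed for myeloid cells and microglia and none of 2 for lymphocytes could be located. Nor could any of 6 for neurons, and the labelled tissue was not checked. A miRNA could be located only if it stood in the study's lists of increased and decreased miRNAs, so every located marker differs by that choice, and unchanged members could not be seen. Summed signals add probes that bind unequally and can be carried by a single miRNA. Of 6 oligodendrocyte miRNAs 2 were located, and both were lower in CPZ, with a summed linear signal of 420 in CPZ and 1024 in control. They are miR-219a-2-3p, at 8.16 in CPZ and 9.66 in control, and miR-338-5p, at 7.07 in CPZ and 7.74 in control. Of 5 epithelial miRNAs of the miR-200 family 4 were located, all lower in CPZ, with a summed linear signal of 30.2 in CPZ and 1539 in control. miR-203-3p, also grouped with epithelial miRNAs though not in that list, was higher, at 5.70 in CPZ and 4.77 in control. miR-182-5p and miR-200b-5p, likewise outside the list, were lower, at 4.10 and 1.59 in CPZ and 9.85 and 6.99 in control. The located vessel wall miRNA, miR-145a-5p (1 of 4 listed), was lower in CPZ, at 10.52 against 11.16 in control, and the choroid plexus and ependyma miRNA miR-34c-5p (1 of 5 listed) was higher, at 6.79 against 5.85. miR-199a-3p and miR-199b-3p, also grouped with vessel wall miRNAs though not in that list, were higher, at 3.58 in CPZ and 2.15 in control. These few miRNAs do not stand for their lists or cell types, and the part of differing cell content in the 3 increases was not tested. In whole tissue, more cells of a type and more of a miRNA per cell cannot be told apart.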

How the data were processed

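Brain RNA of CPZ-fed and control mice was measured on 2 arrays, grouped by their labels. Per the labels and the study's methods, the authors ran RMA in Affymetrix Power Tools and deposited the resulting log2 signals, 1 per feature and array. The version, and any genome build, are not given in the sources used here. RMA treats both arrays together. Detection calls and the authors' feature names were not used here, and 0 columns belonged to other samples.

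For each feature the log2 ratio (CPZ minus control) was computed, and the volume, which is the geometric mean of its RMA values. A miRNA was located where both equalled its printed fold change and volume within 0.0002. Members differed from the printed values by at most 4.1e-07, and the nearest other pair of values lay 0.0813 away (miR-146b-5p). Printed values named features only. Of 36249 features, 32257 had the same pair of values as another, and each distinct pair was counted once.

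The members and lists were chosen with earlier results of these data known. Named miRNAs are the members, the 2 other located ratios closest to each and located members of fixed lists. miR-203-3p, miR-182-5p and miR-200b-5p were named outside these rules, after seeing the data. No test was possible with 1 array per group. Alternatives were 16 or 32 added to the linear signals, centring, lowess (span 0.3), quantile normalization, a tolerance of 0.002, a 2-fold threshold and a mean of at least 5. Other constants (1, 2, 4, 8 and 64) were added after seeing the data. The number of arrays limits the precision. Functions were tested on simulated data. Python 3.11.15, numpy 2.4.6, pandas 2.3.3, statsmodels 0.14.6, matplotlib 3.10.9 and RNAfold 2.7.2 were used.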

Additional observations from a re-analysis of the deposited data

How the results depend on the processing

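No alternative turned a direction for any of the 3 miRNAs, but the alternatives could hardly have turned one. Quantile normalization could not, since the sorted values of the 2 arrays differed by at most 0.44, less than any member's log2 ratio. Lowess follows the ratios of like level, whose medians were -0.12 to 0.07 at the levels of the members. An added constant cannot turn a direction, centring shifted the log2 ratios by 0.018, and a match tolerance of 0.002 found the same features. Centring, lowess and quantile normalization left each member at least 1.5-fold higher. miR-146a-5p stayed at least 1.5-fold higher with each constant tried, with log2 ratios of 1.04 to 1.49 over all alternatives. miR-146b-5p fell under 1.5-fold with 16 (0.53), 32 (0.44) or 64 (0.33) signal units added. miR-155-5p, at 2.65 as deposited, moved to 1.96 with 4, 1.58 with 8, 1.16 with 16, 0.76 with 32 and 0.46 with 64 units added, the last under 1.5-fold. Adding a constant lowers ratios of weak signals by construction. The share of features at least 1.5-fold higher was 9.07% as deposited, 15.1% over distinct pairs, 1.88% at 2-fold, and 0.474% or 0.370% with 16 or 32 added. No paired analysis was possible because each condition has 1 array, and no array could be left out.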
